A study of Homo sapiens with 12 samples.

Results

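The genes described here encode the subunits of oxidative phosphorylation, and their RNA was measured by RNA-seq in 2 kinds of human neuron after knockdown of SMN, the protein whose loss causes spinal muscular atrophy. Members were taken by gene symbol, namely NDUFA, NDUFB, NDUFC, NDUFS and NDUFV with a number, SDHA to SDHD, the UQCR genes, CYC1, CYCS, the COX4 to COX8 families, the ATP5 genes and the mitochondrial MT-ND, MT-CO, MT-ATP and MT-CYB genes. This gave 103 gene identifiers of 19329 in either deposited table, 98 of 16406 in the motor neuron table and 102 of 19016 in the other, with 97 in both. Of the 103, 90 are nuclear and 13 are mitochondrial. By annotation, 96 are protein-coding genes, 4 are processed pseudogenes (UQCRFS1P1, ATP5PBP1, ATP5PBP5 and ATP5F1AP3) and 3 are further identifiers of NDUFA6 and NDUFA3 outside the main annotation. All rows were counted, and the counts that moved without these 7 are given where they differ.

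The motor neurons (iMNs) were made from HB9–Td-Tomato induced pluripotent stem cells by small molecules and sorted by FACS for Td-Tomato, a red protein driven by the promoter of the motor neuron gene HB9 (MNX1). The i3Ns were made from H1 embryonic stem cells by doxycycline-induced NGN2, which yields excitatory glutamatergic neurons. Both received lentivirus with an shRNA from the same vector, against SMN1 and SMN2 in SMN-KD cells and scrambled in SCR cells. By the paper's methods, the shRNA was induced by doxycycline in the medium, in iMNs as well as i3Ns. RNA was taken after 12 days. There were 3 libraries a group and 12 in all, and 1 stem cell line stands behind each cell type, so the effects of type, line and protocol cannot be told apart. Nothing in the sources says whether the 3 libraries of a group came from separate cultures, so the errors may be technical.

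The deposited tables give, for each gene, the mean normalized count over the 6 libraries of a cell type, the knockdown's log2 fold change, its standard error (SE) and the DESeq2 adjusted p-value. Values of single libraries and total counts were not used here. Group means below were therefore derived from the mean and the fold change, carry no SD of their own, and cannot show whether the libraries of the 2 groups overlap. A gene is said to rise or fall where its adjusted p-value was under 0.01, and fold changes are SMN-KD over SCR. Summed over their identifiers, SMN1 and SMN2 decreased by 77.9% with knockdown in iMNs and decreased by 82.7% in i3Ns. The motor neuron markers CHAT, SLC18A3, SLC5A7, ISL1 and MNX1 were present in iMNs, and SLC17A6 and SLC17A7, transporters that load glutamate, were present in i3Ns. The lists do not part the cell types cleanly. All 8 motor neuron markers were also listed in i3Ns, and 5 of 6 glutamatergic markers in iMNs. Of 8 motor neuron markers, 4 fell and 1 rose in iMNs, with a summed 17673 normalized counts in SCR and 12164 in SMN-KD, and 5 fell and 1 rose in i3Ns, with a summed 31614 and 25703. CHAT, which makes acetylcholine, fell in both. Of 6 glutamatergic markers in i3Ns, 3 fell and 2 rose, with a summed 28059 in SCR and 21732 in SMN-KD. Of the 5 listed in iMNs, 1 fell and 0 rose, with a summed 1135 and 877. Of 6 general neuron markers, 4 fell and 2 rose in iMNs, with a summed 247796 and 213353. In i3Ns 3 of these fell and 1 rose, with a summed 230674 and 206925. Markers of other cells also moved in i3Ns. The 5 markers of dividing cells fell from a summed 2040.5 to 381 normalized counts. Of 6 mesenchymal markers, 4 fell and 1 rose, with the summed level of the list going from 10815 to 1131. In iMNs 3 markers of dividing cells were listed, at a summed 208 and 217, and 3 of 5 mesenchymal markers rose, with a summed 1878 and 3242. Of 3 pluripotency markers listed in i3Ns, LIN28A rose and POU5F1 and NANOG did not pass, with a summed 1579 and 6896, and in iMNs LIN28A alone was listed and did not pass. Of 2 glial markers listed in i3Ns, MBP fell, with a summed 1275 and 631, and neither of the 2 listed in iMNs passed. GFAP, AQP4 and SOX10 were in neither table. The part of these cells in the results below was not tested, and in bulk RNA fewer cells of a type cannot be told apart from less RNA per cell.

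Oxidative phosphorylation makes most of a neuron's ATP in the inner membrane of mitochondria. Complexes I and II pass electrons from NADH and succinate to ubiquinone, complex III passes them to cytochrome c, and complex IV passes them to oxygen. Complexes I, III and IV pump protons, and complex V, the ATP synthase, lets them back and makes ATP. The mitochondrial genome encodes hydrophobic core subunits of complexes I, III, IV and V, transcribed as long precursors that are cut into separate RNAs, while the nucleus encodes all of complex II and every other subunit.

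In iMNs 11 of 98 members fell and 15 rose, against 18.7% of all genes that fell and 17.1% that rose. In i3Ns 37 of 102 fell and 19 rose, against 25.7% and 22.8% of all genes. The members' shares were 11.2% lower and 15.3% higher in iMNs, and 36.3% lower and 18.6% higher in i3Ns. The shares in iMNs thus lay below those of all genes in both directions, and in i3Ns the share that fell lay above. The median log2 fold change over members was 0.01 in iMNs, beside 0.00 over all genes, and -0.07 in i3Ns, beside 0.01. Expression level enters these shares, since of the genes whose mean normalized count reached 1000, 28.7% fell and 25.0% rose in iMNs and 35.3% fell and 35.4% rose in i3Ns. Of the nuclear members at that level, 12.7% fell and 21.1% rose in iMNs and 44.9% fell and 17.4% rose in i3Ns. Leaving out the pseudogenes and further identifiers changed only the members rising in i3Ns, to 18.

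The study also asked for an absolute log2 fold change above 1. Of all genes, 2.37% fell and 0.969% rose past these thresholds in iMNs, and 9.53% fell and 4.23% rose in i3Ns. Among members, 2 fell and 0 rose in iMNs, and 4 fell and 0 rose in i3Ns. The 2 were COX6B1 and NDUFB5 in both cell types, and i3Ns added ATP5MD and COX7A1. Beyond these, no member changed by more than 0.82 on the log2 scale.

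**Figure D1:**
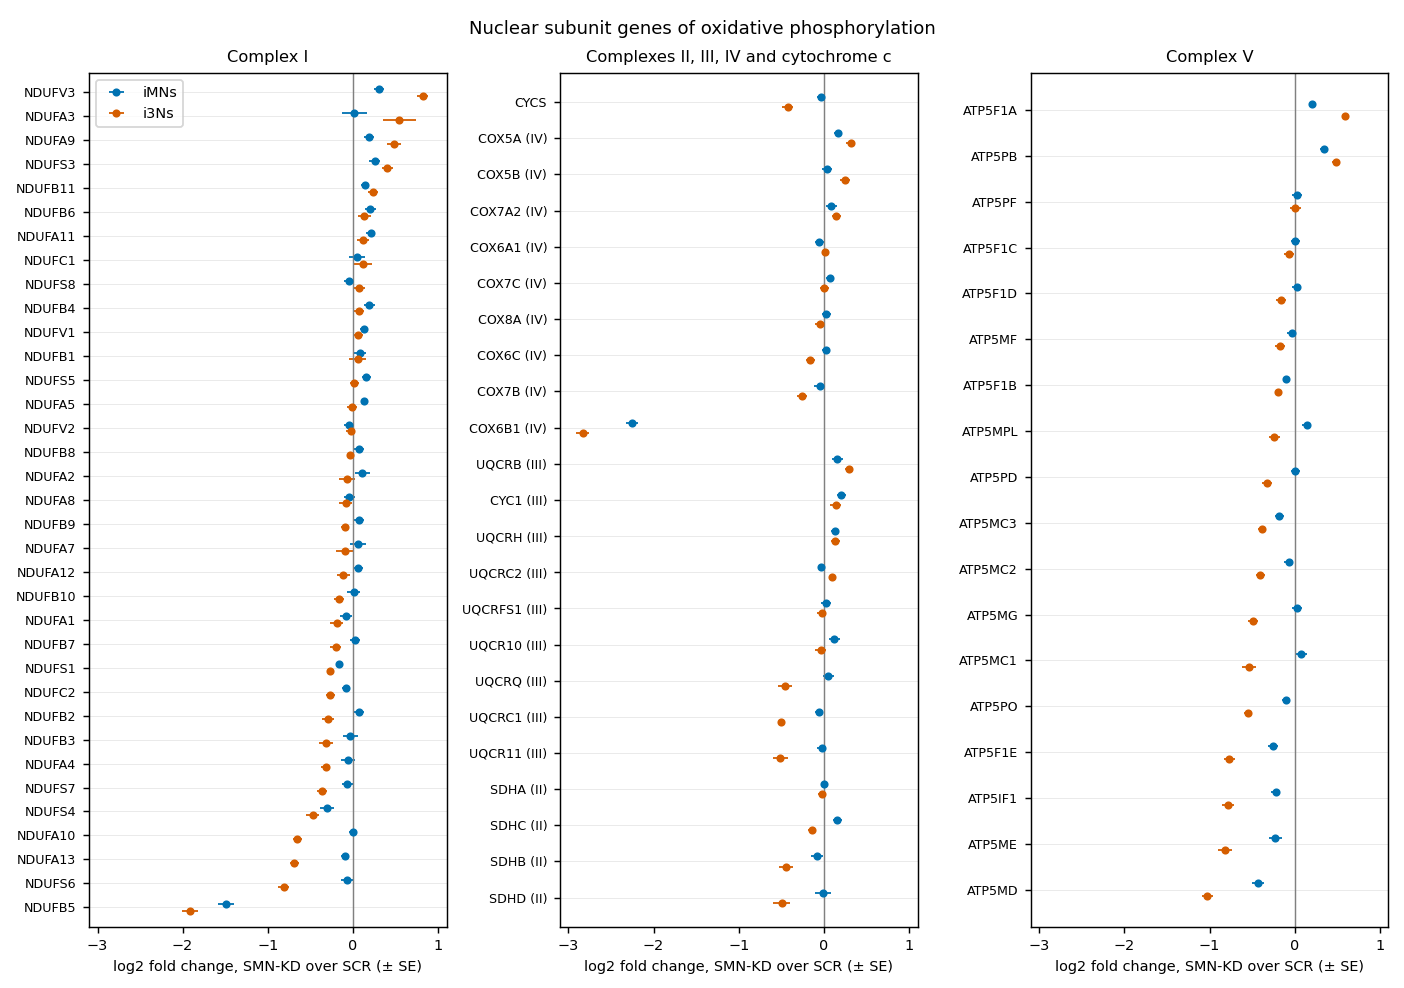
Log2 fold change, SMN-KD against SCR (horizontal axis, with SE), of protein-coding nuclear members whose mean normalized count reached 100 in either table, by complex and ordered by the i3N value, iMNs in blue and i3Ns in orange. COX6B1 at -2.26 and -2.83 and NDUFB5 at -1.50 and -1.91 stand apart in both, and most other members lie within 0.5 of 0.

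COX6B1, a small complex IV subunit facing the intermembrane space, showed the largest change. Its derived mean normalized count was 3705 in SCR and 775 in SMN-KD iMNs, and 2946 and 413 in i3Ns. The log2 fold changes were -2.26 ± 0.07 and -2.83 ± 0.07, the first with a DESeq2 adjusted p of 1.15e-220 and the second listed as 0, below what the file can write. NDUFB5, an accessory subunit in the membrane arm of complex I, went from 1387 to 492 in iMNs and from 1991 to 529 in i3Ns. Its log2 fold changes were -1.50 ± 0.09 and -1.91 ± 0.09, with DESeq2 adjusted p-values of 4.38e-56 and 3.51e-95. As a share of SCR, COX6B1 fell by 79.1% in iMNs and fell by 86.0% in i3Ns. NDUFB5 fell by 64.6% in iMNs and fell by 73.4% in i3Ns. COX4I1, the main form of a complex IV subunit whose symbol the rule misses, fell from 6075 to 1133 in iMNs and from 9394 to 1355 in i3Ns, with log2 fold changes of -2.42 ± 0.05 and -2.79 ± 0.05.

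These 3 genes carry in their 3′-UTR a short stretch that also occurs in the shRNA target. The shRNA against SMN matches 21 bases in coding exon 4 of SMN2, chr5:70067093-70067113 on the plus strand of GRCh38, and the same bases of SMN1. Cells cut an shRNA down to a guide strand, whose bases 2 to 8, the seed, pair with CTAATAA in a target, and whose bases 3 to 9 pair with GCTAATA. A UTR that holds both in overlap reads GCTAATAA. The 3′-UTRs of MANE Select transcripts (GENCODE 44) were searched on the transcribed strand for either word, and sites overlapping the polyadenylation signal AATAAA were kept. The target is printed with sites picked after the values were seen, those of the largest falls and, for contrast, those of NDUFA10 and NDUFB8, which did not fall in iMNs. The sites of NDUFS1, NDUFA5, NDUFB9, NDUFC2, ATP5MC3, UQCRB and COX6C are not printed. The shared bases are in capitals:
SMN2 target: atctgtgaagtaGCTAATAAt
COX6B1: tgacttacctGCTAATAAaaactcattg
COX4I1: ttgtaccactGCTAATAAatgaccagtt
NDUFB5, first site: ttaaaatgtaCTAATAAaaactggaga
NDUFB5, second site: ttatagaagtCTAATAAtgttaagcac
NDUFS4: tcttaatctcCTAATAAattggacctt
NDUFA10: ccattttttgGCTAATAAttggctttga
NDUFB8: aatgaaatccCTAATAAaactcagtgc

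The COX6B1 site lies in exon 4 of 4 at chr19:35658746-35658773 (window, plus strand), 19 bases before the end of a 135-base 3′-UTR. The COX4I1 window is chr16:85806966-85806993 on the plus strand, in exon 5 of 5. The NDUFB5 windows are chr3:179624219-179624245 and chr3:179624320-179624346 on the plus strand, in exon 6 of 6. The NDUFS4 window is chr5:53683303-53683329 on the plus strand, the NDUFA10 window chr2:239958367-239958394 on the minus strand and the NDUFB8 window chr10:100523747-100523773 on the minus strand, each in the last exon. COX6B1, COX4I1 and NDUFA10 hold the 8-base word and the others the 7-base seed match alone. In COX6B1, COX4I1, NDUFS4, NDUFB8 and the first NDUFB5 site the match runs into AATAAA.

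Members with a match differed widely in their change. NDUFS4, an accessory subunit of complex I, fell by 0.31 on the log2 scale in iMNs and by 0.47 in i3Ns. NDUFA10, another accessory subunit, held the 8-base word and stood at a fold change of 0.00 ± 0.05 (log2) in iMNs (DESeq2 adjusted p = 0.974) and -0.65 ± 0.05 in i3Ns (DESeq2 adjusted p = 5.63e-37). NDUFB8, with a site 17 bases from its transcript end, had values of 0.07 ± 0.06 and -0.03 ± 0.05 and passed the test in neither. NDUFS1, with 3 sites far down a 9368-base UTR, fell by 0.16 and 0.27. NDUFA5, which also holds a match to the scrambled guide, rose by 0.13 in iMNs and had -0.01 in i3Ns. Matches were no more frequent among members than elsewhere, at 12 of 80 members with an annotated 3′-UTR in iMNs (15.0%) and 19.1% of all genes, and 12 of 82 (14.6%) and 18.6% in i3Ns. Of the 12, 5 fell and 1 rose in iMNs and 7 fell and 1 rose in i3Ns. Over all genes with a match, 41.6% fell in iMNs and 45.2% in i3Ns, beside 15.6% and 26.4% of genes without one. These groups were not matched for 3′-UTR length. Over all protein-coding genes with a mean of at least 100, fold change against transcript length gave a Spearman rho of -0.11 in iMNs and -0.02 in i3Ns. Members without a match fell in 5 of 68 cases in iMNs (7.35%) and in 29 of 70 in i3Ns (41.4%). Whether the guide acts on these RNAs was not tested.

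The corresponding words for the scrambled guide, CTAGTAA and ACTAGTA, occurred in 5 members, namely NDUFV3, NDUFA9, ATP5F1A, COX7B and NDUFA5. They made up 6.25% of the 80 members with an annotated 3′-UTR in iMNs, against 11.4% of all genes. In i3Ns they made up 6.1% of 82, against 11.0%. Of these 5, 4 rose in iMNs and 3 rose in i3Ns, where COX7B fell. Of all genes with such a match, 31.5% rose in iMNs and 42.4% in i3Ns, beside 17.2% and 23.7% of genes without one, again without matching for 3′-UTR length. The sites of the 3 that rose in both are shown with the matched bases in capitals:
NDUFV3: aaaattgaaaACTAGTAttgtggtcat
NDUFA9, second site: tacctttatgCTAGTAAcattcaaatt
ATP5F1A: tgtcattgttCTAGTAAattagttcca
The windows are chr21:42911269-42911295 on the plus strand, chr12:4689088-4689114 on the plus strand and chr18:46084219-46084245 on the minus strand. NDUFV3 and ATP5F1A had the largest rises of members in i3Ns, where NDUFA9 rose by 0.48, while in iMNs NDUFA9 was not among the largest rises, at 0.18. Both comparison arms thus carry an shRNA with short matches among the members. Whether the scrambled guide acts on these RNAs was not tested.

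**Figure D2:**
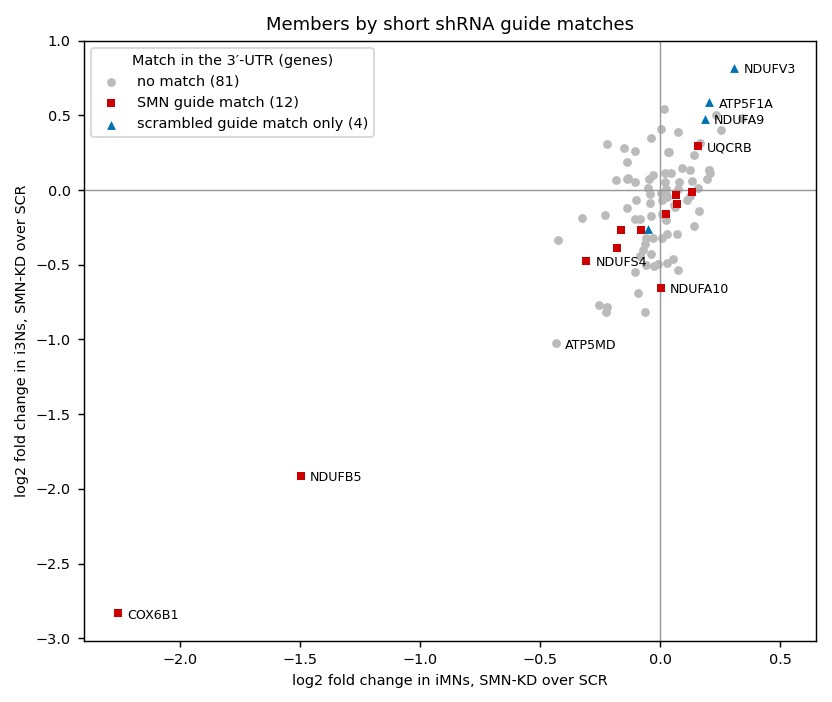
Log2 fold change in iMNs (horizontal axis) against i3Ns (vertical axis) for the 97 members in both tables, marked by whether the 3′-UTR holds a short match to the SMN guide (red squares), to the scrambled guide only (blue triangles) or neither (grey). COX6B1 and NDUFB5 lie far below the rest, while other red squares lie among the grey points.

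Complex I had 39 nuclear members in each table. In iMNs 3 fell and 10 rose, and in i3Ns 13 fell and 7 rose, with median log2 fold changes of 0.06 and -0.03. The shares that fell were 7.69% and 33.3%, beside 18.7% and 25.7% of all genes. The shares that rose were 25.6% and 17.9%, beside 17.1% and 22.8%. The 3 that fell in iMNs, NDUFB5, NDUFS4 and NDUFS1, all hold a match to the SMN guide. So do NDUFA5, which rose in iMNs, and NDUFA10, NDUFB8, NDUFB9 and NDUFC2, which did not pass there. Among the core subunits of its peripheral arm, NDUFS3 rose in both cell types. It went from 1448 to 1726 in iMNs and from 1481 to 1960.2 in i3Ns, with log2 fold changes of 0.25 ± 0.07 and 0.40 ± 0.07. NDUFS1, the largest core subunit, fell from 9149 to 8175 and from 8992 to 7475. NDUFV1, which binds NADH, stood at 0.13 ± 0.05 in iMNs with a DESeq2 adjusted p just over the threshold, and 0.06 ± 0.06 in i3Ns. NDUFS7, an iron-sulphur subunit, fell in i3Ns alone, by 0.36. NDUFV2 and NDUFS8 passed in neither. These core subunits thus moved in both directions within each cell type.

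Of 30 accessory complex I subunits, 2 fell and 8 rose in iMNs and 11 fell and 4 rose in i3Ns. As shares, 6.67% fell and 26.7% rose in iMNs, beside 18.7% and 17.1% of all genes. In i3Ns 36.7% fell and 13.3% rose, beside 25.7% and 22.8% of all genes. The largest rise was in NDUFV3, a small subunit of the NADH-binding arm, from 2283 to 2829 in iMNs and from 1562 to 2753 in i3Ns. Its log2 fold changes were 0.31 ± 0.06 (DESeq2 adjusted p = 3.06e-07) and 0.82 ± 0.06 (DESeq2 adjusted p = 1.95e-37). NDUFA9, a subunit near the junction of the arms, rose by log2 0.18 ± 0.06 and 0.48 ± 0.08, and NDUFB11 by 0.14 and 0.23. Rises in iMNs alone were seen in NDUFA11, NDUFB6, NDUFB4, NDUFS5 and NDUFA5, between 0.13 and 0.21. In i3Ns NDUFS6, which carries zinc, went from 1833 to 1042, a log2 fold change of -0.82 ± 0.07 (DESeq2 adjusted p = 6.70e-31). In iMNs it stood at 1486 and 1420.3, at -0.06 ± 0.08. NDUFA13, also called GRIM-19, went from 3317 to 2058 in i3Ns, at -0.69 ± 0.05, and had -0.09 ± 0.05 in iMNs. NDUFA4, counted here by its name but now assigned to complex IV, fell by 0.32 in i3Ns. NDUFA3 stood at 0.01 ± 0.15 in iMNs and rose by 0.54 ± 0.20 in i3Ns, from 149.6 to 218 derived counts. NDUFA6 was split over identifiers, and the one on the main assembly held under 35 derived counts in each group. Summed over identifiers, NDUFA6 stood at 2354 and 2499.7 in iMNs and 2693 and 3217 in i3Ns. Such splits make the values of NDUFA6 and NDUFA3 uncertain.

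Complex II, made of 4 nuclear subunits, had no member that fell and 1 that rose in iMNs, and 3 that fell in i3Ns. Of all genes, 18.7% fell and 17.1% rose in iMNs and 25.7% fell and 22.8% rose in i3Ns. Its median log2 fold change was 0.00 in iMNs and -0.29 in i3Ns. SDHA, the flavoprotein that oxidises succinate, stood at 4850.2 and 4859.6 in iMNs and at 4718 and 4648 in i3Ns. Its log2 fold changes, 0.00 ± 0.04 and -0.02 ± 0.04, did not pass. SDHB, the iron-sulphur subunit, went from 1020.3 to 752 in i3Ns, at -0.44 ± 0.08, and had -0.08 ± 0.07 in iMNs. SDHD, a membrane anchor, went from 736 to 522 in i3Ns, at -0.49 ± 0.10, and had -0.01 ± 0.09 in iMNs. SDHC, the other anchor, was the only member called in opposite directions. It rose from 3666 to 4094 in iMNs, at 0.16 ± 0.05 (DESeq2 adjusted p = 0.00632), and fell from 3749 to 3397 in i3Ns, at -0.14 ± 0.05 (DESeq2 adjusted p = 0.00358).

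Complex III had 11 nuclear members, of which 0 fell and 1 rose in iMNs and 3 fell and 1 rose in i3Ns. The median log2 fold changes were 0.03 and -0.04. In i3Ns the share that fell, 27.3%, lay near the 25.7% of all genes, and 9.09% rose, beside 22.8%. The iMN counts stood beside 18.7% of all genes that fell and 17.1% that rose. CYC1, the haem-bearing cytochrome c1, was the member that rose in iMNs, from 2159 to 2486, at 0.20 ± 0.05 (DESeq2 adjusted p = 0.000402), and it had 0.14 ± 0.07 in i3Ns. UQCRC1, a core protein without a redox centre, went from 5112 to 3618 in i3Ns, at -0.50 ± 0.04 (DESeq2 adjusted p = 1.62e-31), and had -0.06 ± 0.05 in iMNs. UQCR11 and UQCRQ, small subunits, fell in i3Ns by 0.51 and 0.46 and had values of -0.03 and 0.05 in iMNs. UQCRB, which supports ubiquinone binding, rose in i3Ns by 0.30 ± 0.05 although its 3′-UTR holds a match to the SMN guide. UQCRFS1, the Rieske iron-sulphur protein, passed in neither, at 0.03 ± 0.05 and -0.03 ± 0.05. CYCS, cytochrome c itself, went from 4914 to 3657 in i3Ns, at -0.43 ± 0.06 (DESeq2 adjusted p = 1.49e-10), and stood at 9721 and 9474 in iMNs, at -0.04 ± 0.04.

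Of complex IV, 10 nuclear members were in the iMN table, of which 1 fell and 1 rose, and 12 in the i3N table, of which 3 fell and 3 rose. The iMN counts stood beside 18.7% of all genes that fell and 17.1% that rose, and the complex IV shares lay below these. The i3N counts stood beside 25.7% of all genes that fell and 22.8% that rose, and the complex IV shares lay near these. Median log2 fold changes were 0.03 and -0.10. Apart from COX6B1, COX5A was the member that changed in both. COX5A, a nuclear subunit on the matrix side, rose from 3444 to 3862 in iMNs and from 2446 to 3040.3 in i3Ns, at 0.17 ± 0.05 and 0.31 ± 0.05. COX5B, which binds zinc, rose in i3Ns by 0.25 ± 0.06 and had 0.04 ± 0.06 in iMNs. COX7A2 rose in i3Ns by 0.15, and COX7B fell by 0.26. COX6A1 and COX8A passed in neither, with values from -0.05 to 0.03. Among tissue-restricted partners, COX6B2, the testis form, stood at 65 and 48 in iMNs and at 14 and 11 in i3Ns and passed in neither. COX7A1, the heart and muscle form, was in the i3N table alone and went from 30.1 to 8.4 derived counts, at -1.85 ± 0.65, so its large fold change rests on few reads. COX8C was listed in i3Ns at 3.5 and 2.7. COX6A2 and COX7B2 were in neither table. The fall of COX6B1 was thus not matched by the other nuclear complex IV members, while COX4I1 fell alongside it.

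In complex V 30.0% of nuclear members fell in iMNs and 59.1% in i3Ns, beside 18.7% and 25.7% of all genes. In iMNs this was the largest share of any complex, whereas in i3Ns it lay below the 3 of 4 of complex II. Of its 20 nuclear members in iMNs, 6 fell and 2 rose, and of 22 in i3Ns, 13 fell and 2 rose, with median log2 fold changes of -0.02 and -0.22. The 3 genes for the c subunit, whose ring turns as protons pass, fell together in i3Ns. ATP5MC1 fell by 0.54, ATP5MC2 by 0.40 and ATP5MC3 by 0.39, whereas in iMNs ATP5MC3 alone fell, by 0.18. All 5 supernumerary membrane subunits fell in i3Ns, and 2 of 5 in iMNs. ATP5MD, named ATP5MK in newer annotation, went from 2401 to 1777 in iMNs, at -0.43 ± 0.07 (DESeq2 adjusted p = 2.42e-09), and from 2608 to 1281.5 in i3Ns, at -1.03 ± 0.07 (DESeq2 adjusted p = 9.08e-55). ATP5ME, which helps hold dimers of the enzyme, went from 1235 to 1055 and from 1331 to 755, at -0.23 ± 0.07 and -0.82 ± 0.09. ATP5MG, ATP5MPL and ATP5MF fell in i3Ns by 0.49, 0.24 and 0.17. None of these 5 holds a match to the SMN guide.

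The catalytic head of complex V split. ATP5F1A, the alpha subunit, rose from 15789 to 18200.4 in iMNs and from 17629.6 to 26504 in i3Ns, with log2 fold changes of 0.21 ± 0.03 (DESeq2 adjusted p = 1.13e-10) and 0.59 ± 0.03 (DESeq2 adjusted p = 3.00e-85). ATP5F1B, the beta subunit with which it alternates in the ring, fell from 21374 to 19873 and from 22673 to 19799, at -0.11 ± 0.03 and -0.20 ± 0.03. The epsilon subunit gene ATP5F1E, of the central stalk, fell from 2539 to 2126 and from 2446 to 1436, at -0.26 ± 0.06 and -0.77 ± 0.07. In the peripheral stalk ATP5PB rose from 3872 to 4907 and from 4096 to 5719, at 0.34 ± 0.05 and 0.48 ± 0.04, while ATP5PO, the oligomycin sensitivity protein, went from 4139.9 to 2826 in i3Ns, at -0.55 ± 0.05, and had -0.10 ± 0.05 in iMNs. ATP5IF1, which inhibits the enzyme when it runs in reverse, went from 2555 to 2193 and from 2175 to 1265, at -0.22 ± 0.05 and -0.78 ± 0.07. Partner subunits of one assembly thus moved in opposite directions in the same cells.

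**Figure D3:**
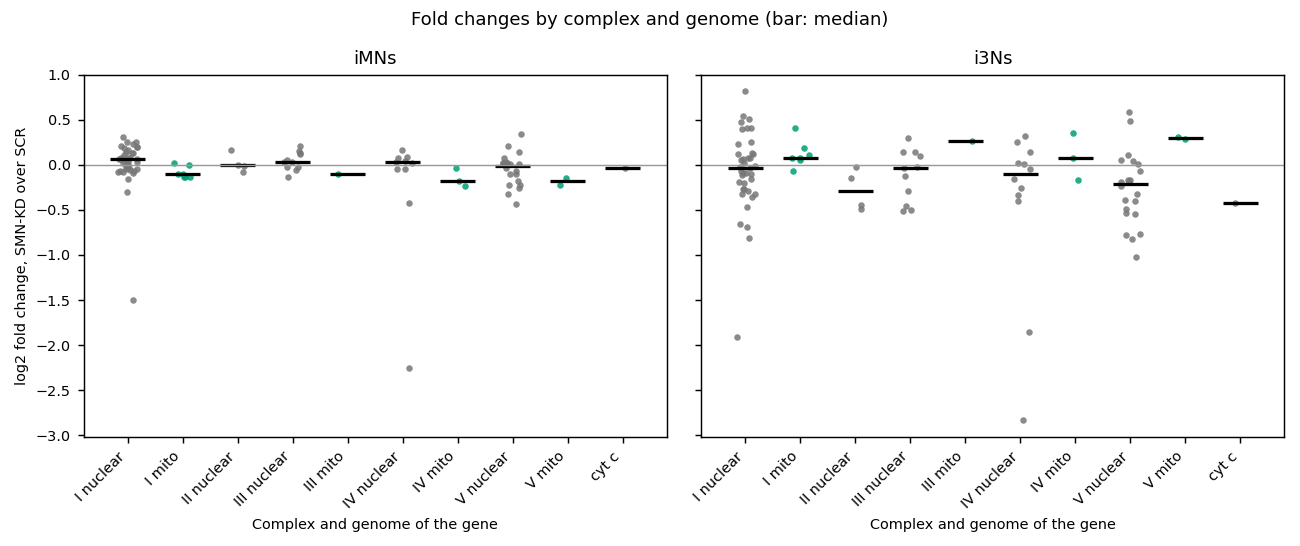
Log2 fold change, SMN-KD against SCR (vertical axis), of all members by complex and genome, nuclear in grey and mitochondrial in green, with the median as a bar, iMNs left and i3Ns right. The single cytochrome c gene lies at -0.04 in iMNs and -0.43 in i3Ns. Setting it aside, the nuclear medians in iMNs lie between -0.02 and 0.06. In i3Ns complex II and complex V then lie lowest at -0.29 and -0.22.

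The mitochondrially encoded members had mostly negative values in iMNs and mostly positive ones in i3Ns. In iMNs 1 of 13 fell and 0 rose, with a median log2 fold change of -0.13, and 11 of 13 values were below 0. In i3Ns 1 fell and 6 rose, with a median of 0.11, and 2 of 13 values were below 0. The share that fell was 7.69% in each, beside 18.7% of all genes in iMNs and 25.7% in i3Ns. The share that rose in i3Ns was 46.2%, beside 22.8% of all genes, and in iMNs 17.1% of all genes rose. The 85 nuclear members in iMNs had a median of 0.02 and the 89 in i3Ns one of -0.11, so the medians of the genomes had opposite signs in each cell type. Apart from MT-ND6, which lies on the other strand, these RNAs come from shared precursors, so their values are not independent of each other. The mitochondrial members held 2.36% of all normalized counts in the iMN table and 2.01% in the i3N table, against 0.596% and 0.512% for the nuclear members. Their derived counts summed to 1057826 in SCR and 983170.0 in SMN-KD iMNs, and to 848641 and 961679 in i3Ns. The log2 ratio of these sums was -0.11 in iMNs, near the -0.08 over all genes, and 0.18 in i3Ns, beside -0.06.

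In i3Ns MT-ND1, a membrane core subunit of complex I, rose most, from 47750.0 to 63521, at 0.41 ± 0.04 (DESeq2 adjusted p = 2.62e-24). In iMNs it stood at 50597 and 50649, at 0.00 ± 0.11. MT-CO1, the catalytic subunit of complex IV with the highest level of any member per kilobase of transcript, rose from 226630.3 to 288867 in i3Ns, at 0.35 ± 0.03 (DESeq2 adjusted p = 2.05e-24). In iMNs it stood at 293955 and 286265, at -0.04 ± 0.06. MT-CO2, which takes electrons from cytochrome c, fell in both, from 83318 to 71009.7 in iMNs and from 83447 to 74194 in i3Ns. Its log2 fold changes were -0.23 ± 0.06 (DESeq2 adjusted p = 0.000139) and -0.17 ± 0.04 (DESeq2 adjusted p = 5.03e-05). MT-CO1 and MT-CO2, neighbours on the same strand, thus moved in opposite directions in i3Ns.

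MT-ATP8 and MT-ATP6, complex V subunits whose genes overlap, rose in i3Ns by log2 0.31 ± 0.07 and 0.28 ± 0.04, and in iMNs had values of -0.22 ± 0.17 and -0.15 ± 0.10. MT-CYB, cytochrome b of complex III, went from 62658 to 75075 in i3Ns, at 0.26 ± 0.03 (DESeq2 adjusted p = 5.97e-15), and had -0.10 ± 0.11 in iMNs. MT-ND2 rose in i3Ns by 0.19 ± 0.04 and had -0.14 ± 0.10 in iMNs. MT-CO3, MT-ND3, MT-ND4 and MT-ND5 lay between 0.06 and 0.08 in i3Ns and between -0.18 and -0.11 in iMNs, and passed in neither. MT-ND4L, which overlaps MT-ND4, had -0.06 and -0.10. MT-ND6, the member on the other strand, had 0.11 ± 0.10 in i3Ns and 0.02 ± 0.09 in iMNs, and was the lowest in level, at 5052 and 3210 normalized counts per kilobase.

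The errors bound what iMNs could show. The median SE of the 13 was 0.10 in iMNs and 0.04 in i3Ns, although the counts were of similar size, and the median SE of genes with a mean of at least 1000 was 0.06 in both tables. A log2 fold change of 0.2 in a mitochondrial RNA therefore lay within about 2 SE in iMNs for most of these genes. Reads of mitochondrial RNA can also be assigned to nuclear copies of these genes. The iMN table lists 7 such pseudogenes, with a summed 3745 derived counts in SCR, and the i3N table lists 39, with 2898, under 1% of the mitochondrial members' sum. The ribosomal and transfer RNA genes of the mitochondrial genome were in neither table.

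**Figure D4:**
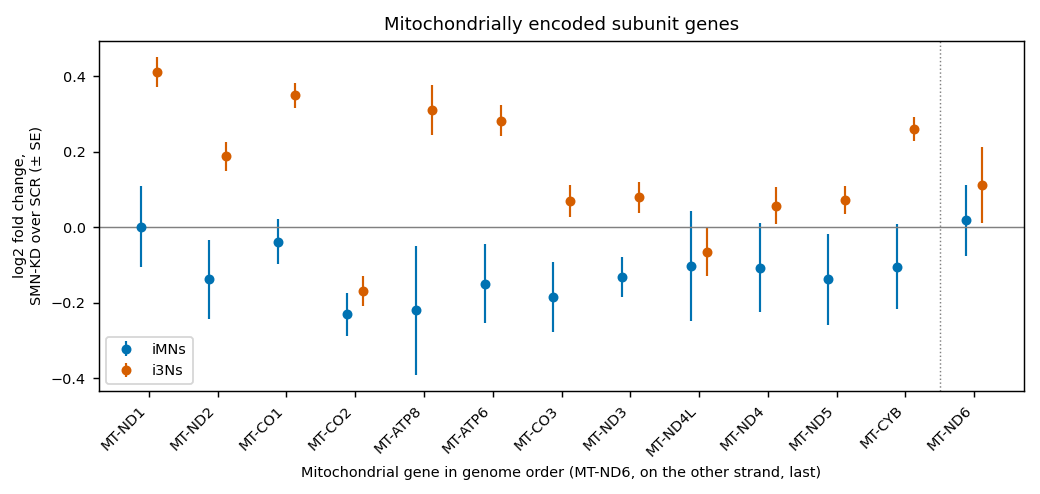
Log2 fold change, SMN-KD against SCR (vertical axis, with SE), of the 13 mitochondrially encoded members in genome order, with MT-ND6 of the other strand last, iMNs in blue and i3Ns in orange. In i3Ns the values run from -0.17 for MT-CO2 to 0.41 for MT-ND1, and in iMNs from -0.23 to 0.02 with wider errors.

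Whether a fold change differed between the cell types was tested from the 2 fold changes and their SEs, by a Wald z with Benjamini-Hochberg adjustment over 16093 genes. Of all these genes, 18.1% had a lower and 16.0% a higher fold change in i3Ns at an adjusted p under 0.01. Of the 97 members in both tables, 25 were lower in i3Ns (25.8%) and 8 higher (8.25%). In either direction 34.0% of members differed, the same share as of all genes. All 25 were nuclear, and complex V gave 11 of them. Of the 8, 5 were the mitochondrial MT-ND1, MT-ND3, MT-CO1, MT-CYB and MT-ATP6, and NDUFV3 and ATP5F1A were among the nuclear ones. The largest differences were -0.75 ± 0.10 for NDUFS6 (Wald adjusted p = 5.97e-12), -0.66 ± 0.07 for NDUFA10 (Wald adjusted p = 3.65e-20) and -0.61 ± 0.11 for ATP5MC1 (Wald adjusted p = 6.69e-08). Of the mitochondrial members, the difference was 0.43 ± 0.11 for MT-ATP6 (Wald adjusted p = 0.000482) and 0.39 ± 0.07 for MT-CO1 (Wald adjusted p = 8.32e-08). MT-CO2 differed by 0.06 ± 0.07 (Wald adjusted p = 0.536). The 11 members that fell in iMNs also fell in i3Ns. Of the 15 that rose in iMNs, 8 rose in i3Ns, 6 did not pass and 1, SDHC, fell. The same overlap over all genes is not given here, so these counts cannot show whether members differ from other genes. The cell types came from different lines and were normalized in separate tables, so line and cell type cannot be told apart.

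Levels were compared between genes per kilobase of annotated transcript. The 13 mitochondrial members had a median of 65844 normalized counts per kilobase in iMNs and 58196 in i3Ns, against 2777 and 2229 for the nuclear members that have an annotated length. ATP5F1B was the highest nuclear member, at 11725 and 12073. Fold changes had little relation to transcript length, with a Spearman rho of 0.08 in iMNs and 0.13 in i3Ns over 77 protein-coding nuclear members with a mean of at least 100. These points share libraries and are not independent.

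Genes that build the complexes moved in both directions. Of 62 assembly factors, 7 fell and 16 rose in iMNs and 16 fell and 18 rose in i3Ns, with a median log2 fold change of 0.07 and 0.06. As shares, 11.3% fell and 25.8% rose in iMNs, beside 18.7% and 17.1% of all genes, and 25.8% fell and 29.0% rose in i3Ns, beside 25.7% and 22.8%, so in i3Ns the share that fell was that of all genes. SCO1, which delivers copper to complex IV, went from 1379 to 669 in iMNs and from 2273 to 799 in i3Ns, at -1.04 ± 0.09 and -1.51 ± 0.09. LYRM7, which chaperones the Rieske protein to complex III, went from 895 to 392 and from 1630.0 to 692, at -1.19 ± 0.11 and -1.24 ± 0.08. Both hold a match to the SMN guide in the 3′-UTR. NDUFAF2, a late complex I assembly factor, rose from 515 to 749 and from 202 to 455, at 0.54 ± 0.10 and 1.17 ± 0.15, and COX19 and COA7, which act on complex IV, rose in i3Ns by 1.03 and 1.04. TTC19, of complex III, rose by 0.39 and 0.91, and its 3′-UTR holds a match to the scrambled guide.

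Of 31 genes for transcription, processing and replication of mitochondrial DNA, 1 fell and 11 rose in iMNs and 7 fell and 10 rose in i3Ns. The shares were 3.23% and 35.5% in iMNs, beside the 18.7% and 17.1% of all genes, and 22.6% and 32.3% in i3Ns, beside 25.7% and 22.8%. POLRMT, the mitochondrial RNA polymerase, rose from 2458 to 3325 in iMNs, at 0.44 ± 0.07, and had 0.12 ± 0.06 in i3Ns. TFAM, which packages and transcribes this DNA, fell in i3Ns, by 0.30, and had -0.13 in iMNs. LRPPRC, which stabilises mitochondrial messenger RNAs, fell in i3Ns by 0.21 and had -0.01 in iMNs. FASTKD2, PNPT1, SUPV3L1, POLG2 and RNASEH1 rose in both. Of 78 mitochondrial ribosomal protein genes, 3 fell and 18 rose in iMNs and 16 fell and 20 rose in i3Ns. In iMNs 3.85% fell and 23.1% rose, whereas in i3Ns the shares of 20.5% and 25.6% lay near the 25.7% and 22.8% of all genes.

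Among 10 regulators of mitochondrial gene expression, 2 fell and 2 rose in iMNs and 4 fell and 4 rose in i3Ns, where the shares of 40.0% each way stood beside 25.7% and 22.8% of all genes. PPARGC1A, the coactivator PGC-1α that drives mitochondrial biogenesis, went from 1387 to 740.2 in iMNs and from 1110.3 to 494 in i3Ns, at -0.91 ± 0.10 and -1.17 ± 0.15, and its 3′-UTR holds a match to the SMN guide. GABPB1, a subunit of nuclear respiratory factor 2, rose in i3Ns from 1269 to 2551, at 1.01 ± 0.06, and had 0.06 ± 0.08 in iMNs. NFE2L2, the regulator of antioxidant genes, rose by 0.54 and 0.91. Of 6 carriers and channels that move ATP and its substrates across the membranes, 1 fell and 1 rose in iMNs and 5 fell in i3Ns (83.3%, beside 25.7% of all genes). VDAC1, the main outer membrane channel, went from 9000.2 to 3085 and from 10864 to 1950.2, at -1.54 ± 0.05 and -2.48 ± 0.05, with no match to the SMN guide in its MANE 3′-UTR. SLC25A4, the adenine nucleotide carrier of muscle and brain, went from 3644 to 1722 in i3Ns, at -1.08 ± 0.06, and had -0.07 ± 0.04 in iMNs. Of 13 tricarboxylic acid cycle genes, 2 fell and 2 rose in iMNs and 5 fell and 2 rose in i3Ns. The shares were 15.4% each way in iMNs, near those of all genes, and 38.5% lower and 15.4% higher in i3Ns. IDH3A, the catalytic subunit of NAD-dependent isocitrate dehydrogenase, rose by 0.36 and 1.04, and OGDH, of the 2-oxoglutarate dehydrogenase complex, fell by 0.47 and 0.58.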

How the data were processed

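RNA-seq of 12 libraries, 3 for each of SCR and SMN-KD in iMNs and i3Ns, was prepared with ribosomal RNA depletion (RiboErase). The authors trimmed reads with fastp, quantified them with Salmon and compared groups with DESeq2. Versions, annotation and low-count filter are not given in the sources used here. The deposited tables hold the mean normalized count (a signal averaged over 6 libraries), the log2 fold change with its SE, and the p-value with its adjusted p-value. These are the authors' own comparisons, and no other expression values were used. Every fold change within a cell type, with its SE and DESeq2 adjusted p, is the authors' deposited value. The differences between cell types, with their SEs and Wald adjusted p-values, were computed from these. A quasi-likelihood test on counts could not be run. Fold changes of weak genes appear shrunken. Over members with a mean of at least 1000, fold change over SE was a median 0.979 of the z of the deposited p in iMNs and 0.995 in i3Ns. Members and gene lists were chosen with earlier results of these data known.

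Calls used an adjusted p-value under 0.01, and the study's thresholds added an absolute log2 fold change above 1. Group means were derived from the mean and fold change. The difference between cell types was a Wald z with Benjamini-Hochberg adjustment (Python 3, numpy, scipy and pandas). On simulated fold changes with the SEs of 16093 genes, the test recovered 7.5% of 200 planted differences of 0.25, 53.5% of 0.5 and 73.0% of 1.0, and 92.5% of those of 0.5 at a mean of at least 1000 in both tables. Coordinates and 3′-UTRs are from GENCODE 44 on GRCh38, and hg38 is the build named in the submitters' processing notes. The genes named are all mitochondrial members, those past the study's thresholds, the 2 lowest and 2 highest of each complex and cell type with a mean of at least 100, fixed core subunits and paralogues, and members with opposite directions. Other genes were named after their values were seen. A member that this rule takes is not reported here and is left out of the plot of nuclear members, but it stays in every count. Alternatives changed the thresholds, the filter on the mean, the centring, the SEs, the membership and the matching of identifiers.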

Additional observations from a re-analysis of the deposited data

Results flagged for a closer look

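The fold change differed between the cell types, by the Wald test over 16093 genes, in 21 of the 49 members that the naming rule takes. The rule takes the extremes of each complex, which raises this count, and over all 97 members 34.0% differed, beside 34.0% of all genes. Of these, 13 were lower in i3Ns than in iMNs. The difference in log2 fold change (i3N minus iMN) was -0.75 for NDUFS6 and -0.42 for NDUFB5 in complex I. In complex II it was -0.49 for SDHD, -0.36 for SDHB and -0.30 for SDHC, where the direction also changed. In complex III it was -0.48 for UQCR11 and -0.44 for UQCRC1, and for cytochrome c, CYCS, it was -0.39. COX6B1 of complex IV differed by -0.58, although it fell in both. In complex V the differences were -0.59 for ATP5ME, -0.59 for ATP5MD, -0.51 for ATP5F1E and -0.45 for ATP5PO.

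The other 8 were higher in i3Ns. Nuclear members among them were NDUFV3 at 0.51 and ATP5F1A at 0.38. The mitochondrial members were MT-ATP6 at 0.43, MT-ND1 at 0.41, MT-CO1 at 0.39, MT-CYB at 0.36 and MT-ND3 at 0.21. MT-ATP8 differed by more, 0.53 ± 0.18, but its adjusted p of 0.0107 by the Wald test lay just over the threshold.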

How the results depend on the processing

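No paired analysis was possible because the deposited tables hold no values of single libraries, and for the same reason no replicate was left out. With an absolute log2 fold change above 1, 2 members fell and 0 rose in iMNs and 4 fell and 0 rose in i3Ns. Above 0.25, 5 fell and 3 rose in iMNs. With SEs doubled, 2 fell and 2 rose in iMNs, 19 fell and 9 rose in i3Ns, and 5 members differed between cell types. At an adjusted p under 0.001, 7 rose in iMNs. Without members holding a match to the SMN guide, an alternative chosen after seeing the data, 6 fell in iMNs. All other alternatives kept the counts within 1.5 times. Of the single genes, 28 calls were lost with SEs doubled, 7 at 0.001 and 3 with centring, and none reversed.

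Medians moved by more than their median SE mainly when the counts of a group were summed, and the cause was not tested. The log2 ratio of sums in iMNs was -0.083 for complex I, -0.062 for complex III and -0.10 for complex IV. In i3Ns it was 0.092 for complex I, -0.13 for complex II, 0.17 for complex III, 0.18 for complex IV, 0.077 for complex V and 0.18 for the mitochondrial members. These sums hold the members of both genomes, whereas the medians given by complex above are of nuclear members. Over nuclear members alone, the ratio in iMNs was 0.029 for complex I, 0.049 for complex III and -0.097 for complex IV. In i3Ns it was -0.096 for complex I, -0.053 for complex III, -0.10 for complex IV and -0.045 for complex V. In i3Ns the complex IV median was -0.16 with the complex IV subunits COX4I1 and COX7A2L added, and the complex V median -0.28 with a mean of at least 100.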
